A study of Mus musculus with 6 samples.

Results

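Genes that mark the macrophages of erythroblastic islands were followed through 6 RNA-seq libraries of mouse megakaryocytic-erythroid progenitors (MEPs), the marrow cells that form megakaryocytes and red cells. The 10 genes were chosen by name, with earlier results of these data known. The counts table held 1 row for each among 52459 genes: C1qa, C1qb, C1qc, Vcam1, Siglec1, Cd5l, Mrc1, Axl, Adgre1 and Spic. All 10 passed the filter on low counts, which kept 13453 genes. The libraries fall into 3 of wild-type (WT) mice and 3 of Tmprss6-/- mice (KO), numbered 1 to 3 in each genotype. Tmprss6 is a liver protease whose loss raises hepcidin and causes iron deficiency. Each library is a sorted pool from 3 mice, so that the spread between libraries is one between pools. The sort asked for cells with cKit and CD150 and without lineage markers, Sca, Fc gamma receptors, CD105 and CD41. The sources used here do not give the strain, the age or the kind of knockout allele.

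An erythroblastic island is a marrow macrophage surrounded by maturing erythroblasts. The macrophage holds them through adhesion molecules, engulfs the nuclei they expel, clears dying cells and recycles iron from heme. Its genes serve as macrophage markers and not as markers of the sorted progenitors, and macrophages carry Fc gamma receptors, against which the sort was made. C1qa, C1qb and C1qc encode the chains of C1q, the recognition unit of the classical complement pathway, which macrophages secrete.

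The libraries had 13402209 to 22986837 counts, and a floor of 3 counts came to 0.138 to 0.220 CPM. CPM are counts divided by the TMM-corrected library size and brought to one common total. Tmprss6 itself had 5, 4 and 0 counts in WT 1, 2 and 3 and 0, 5 and 0 in KO 1, 2 and 3, near the floor in both genotypes, and checked no label. All 15 MEP identity markers were detected in every library, and their summed levels spanned 3530 to 5505 CPM in KO against 3815 to 6349 CPM in WT. The count and the sums include Eng and Itga2b, which encode CD105 and CD41, against which the sort was made. KO 2 stood apart from the other 5 libraries and had the lowest of these sums. Replicate 3 of both genotypes had 351 and 175 counts of Xist, the female-specific transcript, against at most 1 in the other 4 libraries.

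All 10 island macrophage genes were highest in KO 2, by 7.04-fold (Spic) to 18.8-fold (Mrc1) over the next highest library. Over all genes tested, 23% were highest in that library. It was more than 4-fold above the next library for 10 of 10 members, against 3.29% of all genes tested. As the members were chosen with earlier results of these data known, these shares are descriptive and no independent test. The 10 genes together took 2477 CPM in KO 2 and 47.7 to 238 CPM in the other 5 libraries. In a bulk library, more cells of a type and more RNA per cell cannot be told apart. Without KO 2, the genotypes overlapped for 10 of 10 members, where 10.8% of all genes tested did not overlap, and no member passed the test for a difference between genotypes.

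**Figure D1:**
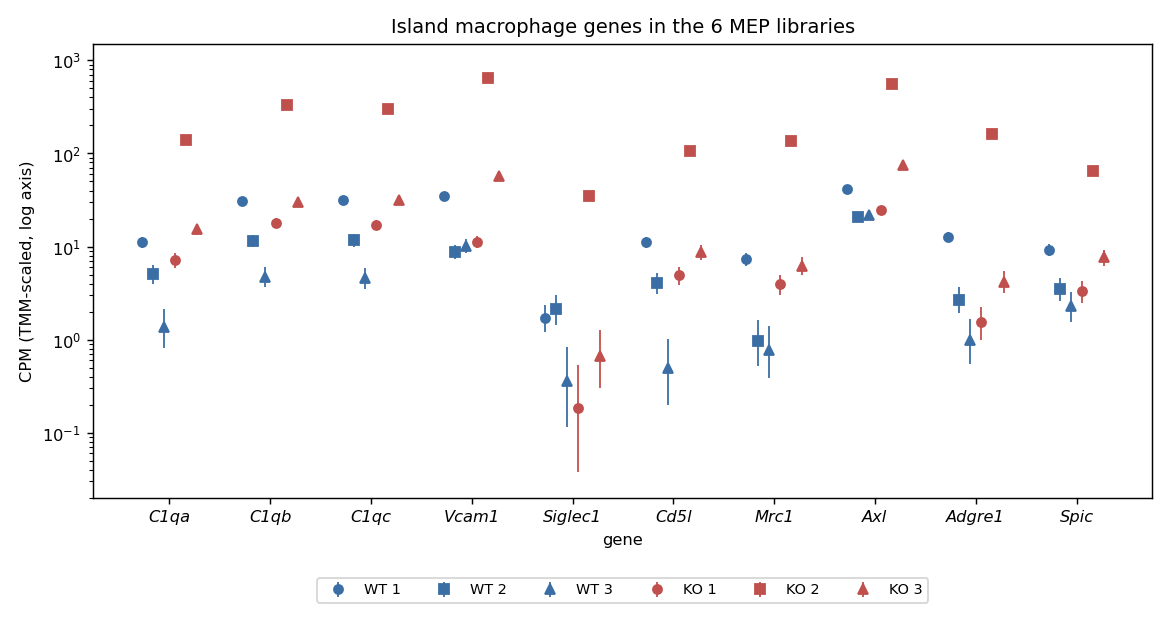
Level of the 10 genes in each library, in TMM-scaled CPM on a log axis. Circles, squares and triangles stand for replicates 1, 2 and 3, blue for WT and red for KO, and bars are 95% exact Poisson intervals, which cover counting error only. The red square, KO 2, is the highest point of every gene, and WT 3 is the lowest of 7.

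The C1q genes lie side by side on chromosome 4 within 18675 bases (136880129 to 136898803, in the coordinates of the deposited table), all on the minus strand. C1qa (ENSMUSG00000036887) had 241, 73 and 19 counts in WT 1, 2 and 3 and 117, 2225 and 209 in KO 1, 2 and 3. C1qb (ENSMUSG00000036905) had 669, 167 and 66 counts in WT and 295, 5311 and 414 in KO. C1qc (ENSMUSG00000036896) had 682, 169 and 64 counts in WT and 278, 4854 and 430 in KO. For each chain KO 2 was highest and WT 3 lowest, and KO 1 lay below WT 1, so the genotypes overlapped. C1qb averaged 126 ± 177 CPM in KO against 15.7 ± 13.6 in WT (SD, n = 3, as for the means below), or 8.02-fold more (log2 fold change 3.00 with SE 1.18; adjusted p = 1.00, edgeR). Without KO 2 its log2 fold change was 0.62 (SE 0.73). C1qa went from 5.83 ± 4.93 CPM in WT to 53.6 ± 73.5 in KO, and C1qc from 15.9 ± 13.9 to 117 ± 160.

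The balance of the 3 chains moved little among the libraries next to their level, but the shares of C1qa and C1qc shifted beyond counting error. C1qb made up 39.3% to 44.3% of the C1q counts, and the exact 95% binomial intervals of all 6 libraries overlapped. C1qc made up 39.2% to 43.0%, and its interval in WT 1 (40.4% to 45.3%) lay above that in KO 2 (38.3% to 40.0%). C1qa made up 12.8% in WT 3, where it had 19 counts (interval 7.86% to 19.2%), and 19.8% in KO 3 (17.5% to 22.4%). The C1qa share in WT 1, 15.1% (13.4% to 17.0%), lay below that in KO 3 and that in KO 2, 18.0% (17.3% to 18.6%). These intervals cover counting error only, and the reads are PCR products without molecular identifiers.

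Promoter sequences, 250 bases before to 50 after a gene's annotated start, were found in RefSeq (GRCm38.p6) for C1qb, C1qc, Cd5l, Mrc1, Axl and Spic. No entry was found for C1qa, Vcam1, Siglec1 and Adgre1. Those of C1qb and C1qc are shown because the ratio of these neighbours stayed close to 1. That of Axl is shown as a gene whose ratio to C1qb moved among the libraries, chosen after its values were seen. The ratio of Mrc1 moved more, over a 4.94-fold range against 3.45-fold for Axl. Whether these sequences bear on the ratios was not tested. The C1qb window is chr4:136886151-136886450, the C1qc window chr4:136892865-136893164 and the Axl window chr7:25788684-25788983, all on the minus strand and written 5′ to 3′. Capitals mark a match to any of the 3 motifs searched.
C1qb: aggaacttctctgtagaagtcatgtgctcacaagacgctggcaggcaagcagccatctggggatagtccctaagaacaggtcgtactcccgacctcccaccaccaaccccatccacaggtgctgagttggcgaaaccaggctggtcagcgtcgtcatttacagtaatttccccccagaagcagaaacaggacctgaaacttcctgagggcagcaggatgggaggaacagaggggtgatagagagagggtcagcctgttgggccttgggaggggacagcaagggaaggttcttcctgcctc
C1qc: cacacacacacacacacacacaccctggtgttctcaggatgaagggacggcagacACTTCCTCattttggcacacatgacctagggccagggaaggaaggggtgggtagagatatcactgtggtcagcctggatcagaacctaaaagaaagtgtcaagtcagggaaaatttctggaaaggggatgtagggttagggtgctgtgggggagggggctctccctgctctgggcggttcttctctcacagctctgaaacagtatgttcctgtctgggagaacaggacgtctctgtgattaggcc
Axl: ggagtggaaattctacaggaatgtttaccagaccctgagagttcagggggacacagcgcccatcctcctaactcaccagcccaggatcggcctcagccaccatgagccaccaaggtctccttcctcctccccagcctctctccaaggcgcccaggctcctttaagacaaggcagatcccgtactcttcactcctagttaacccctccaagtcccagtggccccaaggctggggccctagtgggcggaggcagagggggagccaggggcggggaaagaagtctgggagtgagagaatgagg
The motifs, searched on both strands, were GAGGAAGT (bound by PU.1-type ETS factors, the family of Spic), TGCTGAC (the core of a Maf recognition element) and TATAAA (the TATA box). The C1qc window held GAGGAAGT on the opposite strand, read here as ACTTCCTC, 195 to 188 bases before the start. It was the single match in the 6 windows. Over all 32851 promoters of this length, 3.20% held that motif, 4.67% TGCTGAC and 13.6% TATAAA. A match describes letters in the window and no measured binding.

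Vcam1 and Siglec1 encode adhesion proteins of the macrophage surface. Vcam1 binds the integrin made of the Itga4 and Itgb1 products on erythroblasts and is also made by marrow stromal and endothelial cells. Vcam1 (ENSMUSG00000027962, chromosome 3, 116109949 to 116129688) had 757, 128 and 143 counts in WT and 183, 10441 and 771 in KO. KO 2 and KO 3 were the 2 highest libraries, and KO 1 lay between the WT libraries. Its mean was 239 ± 356 CPM in KO against 18.0 ± 14.7 in WT, or 13.3-fold more (log2 fold change 3.73 with SE 1.37; adjusted p = 1.00, edgeR), with a log2 fold change of 0.91 (SE 0.83) without KO 2. An antisense gene that overlaps Vcam1, Gm43109, had 2 counts in KO 2 and 0 elsewhere.

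Siglec1, a lectin that binds sialic acid and marks resident macrophages of marrow and lymphoid tissue, was the scarcest member. Siglec1 (ENSMUSG00000027322, chromosome 2, 131069220 to 131086765) had 37, 31 and 5 counts in WT and 3, 564 and 9 in KO. KO 1 was at the floor, and KO 1 and KO 3 both lay below WT 1 and WT 2. Siglec1 averaged 12.0 ± 20.0 CPM in KO against 1.40 ± 0.929 in WT (log2 fold change 3.09 with SE 1.67; adjusted p = 1.00, edgeR). Without KO 2 the direction turned, to a log2 fold change of -1.74 (SE 1.01).

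Cd5l and Mrc1 serve scavenging. Cd5l encodes a secreted scavenger receptor-type protein of tissue macrophages, and Mrc1 the mannose receptor, which takes up glycoproteins and is also found on sinusoidal endothelium. Cd5l (ENSMUSG00000015854, chromosome 3, 87357881 to 87371073) had 240, 59 and 7 counts in WT and 80, 1688 and 119 in KO. Mrc1 (ENSMUSG00000026712, chromosome 2, 14229392 to 14332057) had 158, 14 and 11 counts in WT and 64, 2199 and 85 in KO. In both genes WT 1 was the second highest library, above KO 3 and KO 1. Cd5l averaged 39.5 ± 56.7 CPM in KO against 5.21 ± 5.38 in WT (log2 fold change 2.91, SE 1.35). Mrc1 averaged 49.0 ± 76.0 CPM in KO against 3.01 ± 3.70 in WT (3.99, SE 1.53), and the edgeR adjusted p of both was 1.00. Without KO 2 their log2 fold changes were 0.38 and 0.73.

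Axl, a receptor tyrosine kinase that recognises dying cells through the bridging protein Gas6, varied least among the 5 libraries other than KO 2. Axl (ENSMUSG00000002602, chromosome 7, 25757273 to 25788705) had 911, 299 and 310 counts in WT and 404, 8919 and 1036 in KO. Its level outside KO 2 ran from 20.6 to 76.1 CPM, a 3.69-fold range, where that of Cd5l spanned 22.2-fold. KO 3 was above all WT libraries, while KO 1 was below WT 1. Its mean was 219 ± 292 CPM in KO against 28.2 ± 12.0 in WT (log2 fold change 2.95 with SE 1.04; adjusted p = 1.00, edgeR), and Axl had the smallest unadjusted edgeR p of the 10 members, 0.0225. Without KO 2 its log2 fold change was 0.84 (SE 0.56).

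Adgre1 encodes the adhesion receptor whose antibody is the classical stain for mouse macrophages, and which mouse eosinophils carry too. Adgre1 (ENSMUSG00000004730, chromosome 17, 57358686 to 57483529) had 273, 39 and 14 counts in WT and 25, 2580 and 57 in KO. WT 1 exceeded KO 1 and KO 3. Adgre1 averaged 55.4 ± 91.0 CPM in KO against 5.42 ± 6.26 in WT (log2 fold change 3.34 with SE 1.69; adjusted p = 1.00, edgeR), and without KO 2 the log2 fold change turned to -0.94 (SE 1.07).

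Spic encodes an ETS transcription factor that heme induces and that iron-recycling macrophages of mouse spleen and marrow need. Spic (ENSMUSG00000004359, chromosome 10, 88674772 to 88685015) had 199, 51 and 32 counts in WT and 54, 1039 and 104 in KO. KO 1 and WT 2 were close, at 3.30 and 3.51 CPM, and their Poisson intervals overlapped. Spic had the smallest log2 fold change of the 10 members, 2.33, with 25.2 ± 34.2 CPM in KO against 4.99 ± 3.68 in WT (SE of the log2 fold change 1.09; adjusted p = 1.00, edgeR). It was 0.12 (SE 0.70) without KO 2.

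Libraries of the same number were compared as pairs. The labels do not say what the numbers stand for, and the pairing was taken from correlations in these same data. It was weakest for pair 2 (0.16, against 0.53 and 0.63 for pairs 1 and 3). All 10 members were lower in KO in pair 1, and all 10 were higher in pairs 2 and 3. Of all genes tested 48.2%, 49.9% and 49% were higher in KO in pairs 1, 2 and 3. The members' order of signs was found in 11.1% of all genes tested. The log2 difference, KO minus WT, ran from -2.94 (Adgre1) to -0.63 (C1qa) in pair 1, with a median of -1.02. In pair 2 it ran from 3.96 (Siglec1) to 6.97 (Mrc1), with a median of 4.75. In pair 3 it ran from 0.71 (Siglec1) to 3.83 (Cd5l), with a median of 2.56. The medians over all genes tested were -0.013, -0.0024 and -0.0095 in pairs 1, 2 and 3. Pair 3 is the female one.

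**Figure D2:**
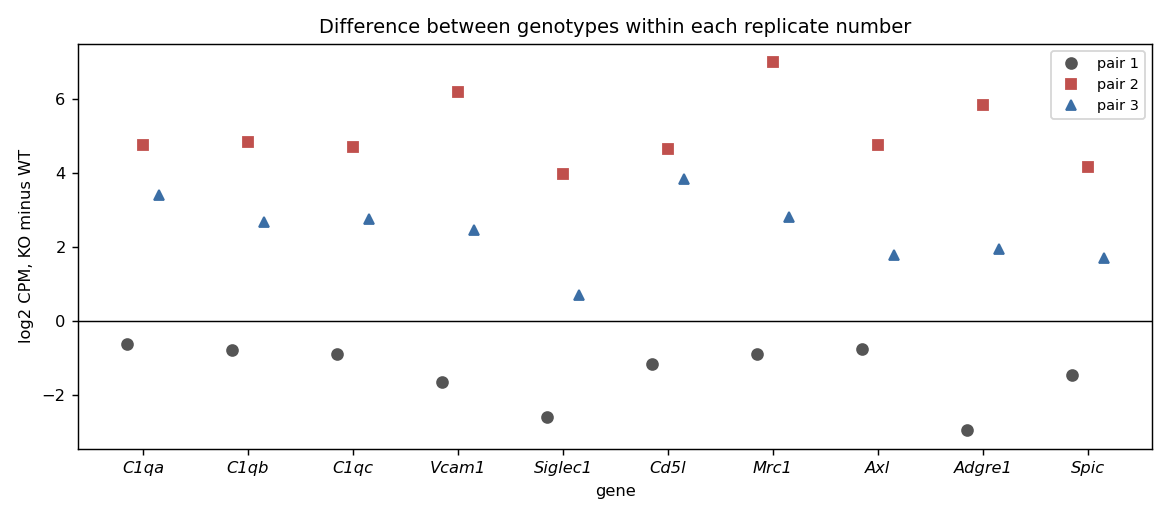
Difference in log2 CPM (prior count 2), KO minus WT, for each gene within the pairs of equal replicate number. All circles of pair 1 lie below 0, from -2.94 to -0.63, and all points of pairs 2 and 3 lie above it.

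Over the 6 libraries the log2 fold changes of the members ran from 2.33 to 3.99, with a median of 3.04, against -0.0048 over all genes tested. The SD exceeded the mean in KO for 10 of 10 members. EdgeR's quasi-likelihood test called 0 of 10 members, and 0% of all genes tested, with 0.05 as the threshold on the adjusted p. Before adjustment 6 members had a p under 0.05 (C1qa, C1qb, C1qc, Vcam1, Mrc1 and Axl), against 1.74% of all genes. With the replicate number as a block on all 6 libraries, 0 members had an unadjusted edgeR p under 0.05, against 3.54% of all genes. DESeq2 gave an adjusted p for 7 members and called 0 of them, against 0.045% of all genes, with 6 members under 0.05 before adjustment (2.6% of all genes). Limma voom called 0, with 0 under 0.05 before adjustment (0.721% of all genes). In pairs 1 and 3 alone, with the pair as a block, edgeR called 0 members, against 0.862% of all genes. Without KO 2, it called 0 members, against 0% of all genes, and 0 had an unadjusted p under 0.05, against 1.07%. There 8 of 10 members had a positive log2 fold change (median 0.62), where 49.5% of all genes had one. The count of members whose genotypes did not overlap was 0 of 10, against 4.03% of all genes. It was 7 without WT 1 (10.6% of all genes) and 4 without KO 1 (16.7%), with KO higher in each.

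The members did not keep a fixed ratio to each other, apart from C1qb and C1qc. Within each library, C1qc had 0.914 to 1.04 counts per C1qb count. Vcam1 had 0.620 in KO 1 and 0.767 in WT 2, but 1.97 in KO 2, 1.86 in KO 3 and 2.17 in WT 3. Axl had 1.36 in WT 1 and 1.37 in KO 1, but 4.70 in WT 3 (95% interval 3.59 to 6.22). WT 3, the library with the fewest C1q counts, was also the one in which Axl outweighed them most. Adgre1 ran from 0.0847 in KO 1 to 0.486 in KO 2, Mrc1 from 0.0838 in WT 2 to 0.414 in KO 2, and Siglec1 from 0.0102 in KO 1 to 0.186 in WT 2. Mrc1 and Adgre1 were thus highest relative to C1qb in KO 2. Spic had 0.297, 0.305 and 0.485 counts per C1qb count in WT 1, 2 and 3 and 0.183, 0.196 and 0.251 in KO 1, 2 and 3. Of the 9 ratios only that of Spic did not overlap between genotypes, singled out here after its values were seen. Over all genes tested, 4.94% of such ratios did not overlap, and the intervals of KO 3 (0.201 to 0.312) and WT 1 (0.253 to 0.349) did.

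**Figure D3:**
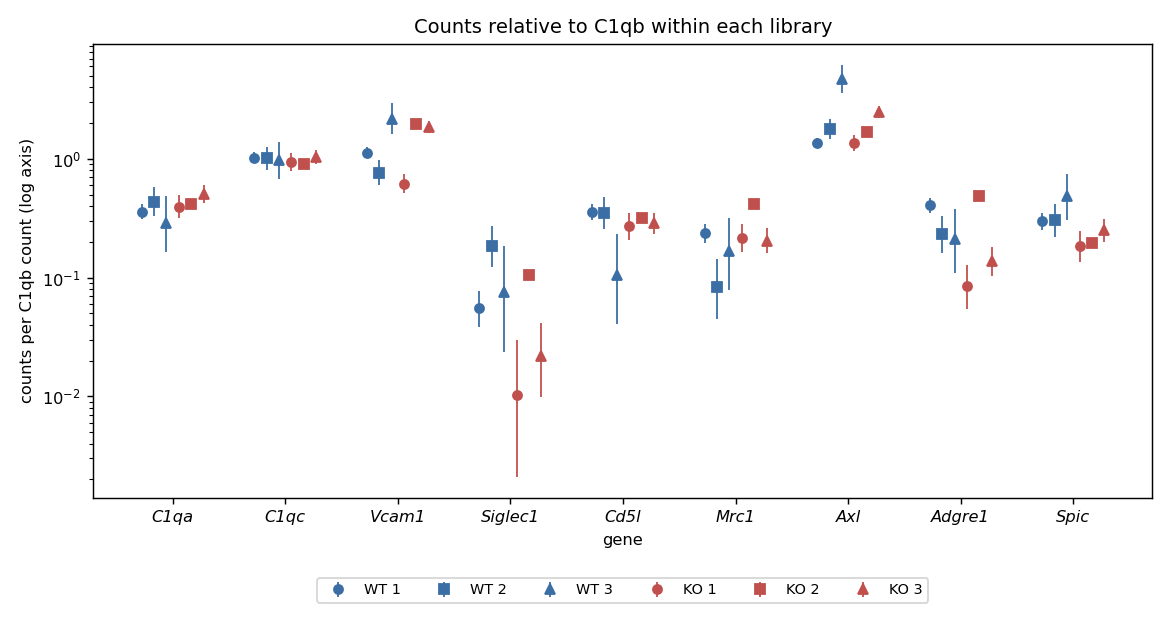
Counts of 9 genes per C1qb count within each library, on a log axis, with symbols as in the plot of levels and 95% intervals from exact binomial limits. C1qc stays between 0.914 and 1.04 in all libraries, while Axl reaches 4.70 in WT 3 and Siglec1 runs from 0.0102 to 0.186.

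Per length of the longest annotated transcript, C1qb was the most abundant member in 5 libraries, from 10.6 CPM per kilobase in WT 2 to 304 in KO 2. In WT 3, Axl came first with 5.17 CPM per kilobase, ahead of C1qb with 4.32. C1qc was next to C1qb in all 6 libraries. Siglec1 was last in 5 libraries, with 5.49 CPM per kilobase in KO 2, and Mrc1 was last in WT 2 with 0.179. On this scale Vcam1 followed C1qb and C1qc in KO 2, at 159 CPM per kilobase, but lay behind Axl and all C1q genes in WT 1, WT 2, KO 1 and KO 3.

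Other genes of the pathways around these members are given from lists chosen with earlier results of these data known, and 0 of their genes passed edgeR's adjusted threshold in the 6 libraries. Of 25 genes of the complement pathway, 17 were tested and 12 had a positive log2 fold change (median 0.62), where 49.3% of all genes had one. Cfp, properdin, which stabilises the alternative pathway convertase, had 28.8, 12.3 and 3.70 CPM in WT and 11.6, 284 and 29.8 in KO. Itgam, a chain of complement receptor 3, had 0.784, 0.0689 and 0.498 CPM in WT and 1.04, 14.0 and 1.54 in KO. Both were highest in KO 2, like 9 of the 17 tested. The proteases that C1q needs were scarce in every library: C1ra ran from 0.367 to 4.66 CPM, C1s1 from 0 to 0.220 CPM, and C1rb was at 0 counts in all 6.

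Of 21 clearance genes 18 were tested, 14 with a positive log2 fold change (median 0.72), and 12 were highest in KO 2. Mertk, a relative of Axl through which macrophages engulf nuclei and dying cells, had 1.15, 0.689 and 0 CPM in WT and 0.550, 38.8 and 1.10 in KO. KO 2 thus stood 33.7-fold above the next library for Mertk, and 7.29-fold for Axl. Tyro3, the other relative, was at 0 to 1.17 CPM. Gas6, the ligand of Axl and Mertk, had 3.41, 0.758 and 0.142 CPM in WT and 0.978, 8.27 and 1.69 in KO. Timd4, a phosphatidylserine receptor, reached 18.2 CPM in KO 2 against 0.0712 to 1.75 CPM elsewhere, while Stab1, another such receptor, was at 0.0622 CPM in KO 2 and at most 0.692 CPM elsewhere. Lrp1 and Itgb5, a scavenger receptor and an integrin chain, reached 47.0 and 77.9 CPM in KO 2.

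Of 18 genes of heme and iron recycling 16 were tested, 12 with a positive log2 fold change (median 1.18), and 9 were highest in KO 2. Hmox1, heme oxygenase, had 34.9, 17.4 and 3.56 CPM in WT and 7.40, 211 and 23.1 in KO, an order of libraries in which WT 3 was lowest and KO 1 below WT 1, as for C1qb. Cd163, the hemoglobin receptor, was between 28.7 and 35.6 CPM in 5 libraries and at 148 CPM in KO 2. Slc11a1, which pumps iron out of phagosomes, reached 48.0 CPM in KO 2 against 0.498 to 3.60 CPM elsewhere. Blvrb, Fth1 and Ftl1, which erythroid cells also use, were not highest in KO 2. They stood there at 475, 1829 and 374 CPM.

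The contact between macrophage and erythroblast also needs genes of the erythroid side. Itga4 and Itgb1, the Vcam1 receptor, had 52.6 to 136 and 206 to 362 CPM over the 6 libraries, with log2 fold changes of -0.43 and 0.08. Maea, an adhesion protein of erythroblasts and macrophages, had 114 to 146 CPM. Of the 13 genes on this list 9 were tested, 4 with a positive log2 fold change (median -0.08), and 3 were highest in KO 2. One of the 3 was Epb42, a red cell membrane protein, at 123 CPM there against 5.24 to 12.8 CPM elsewhere. Icam4, an erythroblast adhesion molecule, was at 0 counts in all libraries.

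Of 16 transcription factors of macrophages 14 were tested, 12 with a positive log2 fold change (median 1.21), and 12 were highest in KO 2. Spi1, which encodes PU.1 and is also expressed in progenitors, was at 43.7 to 49.7 CPM in 5 libraries and at 106 CPM in KO 2. Of 22 general macrophage markers 15 were tested, 14 with a positive log2 fold change (median 2.70), and 14 were highest in KO 2. Csf1r, the receptor for the macrophage growth factor, had 209 CPM there against 1.49 to 13.5 CPM elsewhere, and the lysosomal protease Ctss 156 CPM against 2.85 to 18.1 CPM. The marker that went the other way was Apoe, the most abundant of the list (log2 fold change -0.24). It was lowest in KO 2, at 1303 CPM against 1577 to 2448 CPM elsewhere. With Apoe, the list summed to 1668 to 2460 CPM in WT and 1810, 2184 and 2250 CPM in KO 1, 2 and 3. Apoe made up most of this sum in every library, so the sum does not show the course of the other markers. Some macrophage markers were near the floor even in KO 2, with Marco and Gpnmb at 0.373 CPM and Folr2 at 0.311 CPM.

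The 10 genes whose profile over the 6 libraries lay nearest to the mean profile of the members included Fcna, Pdgfc, Cfp, Lpl, Pilra, Timd4, Fcgr3 and Cd209f. Likeness was the root mean square distance between centred log2 CPM profiles, which KO 2 dominates: the members' mean profile was 3.95 log2 units above its own average there and stood at -2.25 from it in WT 3. Fcna, ficolin A, a lectin of the complement lectin pathway, lay at a distance of 0.14 and had 20.8, 8.41 and 2.92 CPM in WT and 7.95, 214 and 17.4 in KO. Cd209f, a C-type lectin, was the tenth, at 0.33. Fcgr3, an Fc receptor against which the sort was made, lay at 0.29. The members themselves lay at 0.26 (C1qb) to 1.03 (Siglec1).

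Markers of several other cell types were also highest in KO 2, and their part in the differences was not tested. Outside KO 2 their courses differed from list to list. Of 13 neutrophil markers tested 13 were highest in KO 2, with a summed level of 89.0 to 386 CPM in WT and 138, 3630 and 287 CPM in KO 1, 2 and 3. Of 13 eosinophil, basophil and mast cell markers 11 were highest there, with sums of 745 to 1147 CPM in WT and 586, 9249 and 690 CPM in KO. The median log2 difference of the neutrophil list was -2.70 in pair 1 and 0.03 in pair 3, and that of the eosinophil, basophil and mast cell list -1.59 and -4.34, against -1.02 and 2.56 for the members. In pairs 1 and 3 with the pair as a block, edgeR called 6 of the 13 eosinophil, basophil and mast cell markers lower in KO. That fit called 0.862% of all genes tested, in either direction. In KO 3, 6 of the 14 on that list were at 0 counts, while Ccr3 had 10.9 CPM, its second highest level. Of 15 late erythroblast markers 14 were highest in KO 2 (930 to 1132 CPM in WT; 1200, 6879 and 1464 CPM in KO), and of 8 monocyte markers 8 (24.8 to 56.6 CPM in WT; 29.2, 543 and 31.7 CPM in KO). The late erythroblast list had a median log2 difference of 0.47 in pair 1, where that of the members was below 0, and of 1.03 in pair 3. All its 15 markers had a positive log2 fold change, and 10 did not overlap between genotypes, against 4.03% of all genes tested. In pairs 1 and 3, edgeR with the block called 5 of them higher in KO, against 0.862% of all genes called in either direction. Either count was 0 for the members. Of 9 dendritic cell markers 7 were highest in KO 2, with sums of 147 to 359 CPM in WT and 328, 1196 and 221 CPM in KO. No marker of these lists was at 0 in KO 2.

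The B and plasma cell list and the T and NK cell list had the members' order of signs in their medians. Their median log2 differences were -0.48, 3.51 and 2.22 and -0.46, 0.89 and 0.65 in pairs 1, 2 and 3. The medians of the neutrophil, monocyte, dendritic cell, clearance, heme and iron recycling, macrophage transcription factor and general macrophage lists had the same order. Those of the general macrophage markers were -0.79, 4.35 and 2.61. B and plasma cell markers summed to 144, 1451 and 1097 CPM in KO and 48.4 to 181 CPM in WT, with 9 of 10 tested highest in KO 2. T and NK cell markers summed to 433, 409 and 238 CPM in WT 1, 2 and 3. In KO they summed to 449, 495 and 198 CPM, higher in pair 1 and lower in pair 3, unlike the medians. Of 12 tested 11 were highest in KO 2. Stromal and endothelial markers, which bear on Vcam1 and Mrc1, summed to 230 to 346 CPM in WT and 223, 402 and 264 CPM in KO, with 5 of 11 highest in KO 2. Their median log2 differences were -0.44, 0.49 and -0.31 in pairs 1, 2 and 3. Of the 18 on that list, 1, 4 and 2 were at 0 counts in WT 1, 2 and 3 and 6, 0 and 4 in KO 1, 2 and 3. Stab2, of sinusoidal endothelium, had 73, 20 and 20 counts in WT and 0, 370 and 37 in KO. Pecam1, of endothelium, had 30.3, 46.6 and 60.6 CPM in WT and 22.3, 65.7 and 39.0 in KO. No MEP identity marker was highest in KO 2.

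**Figure D4:**
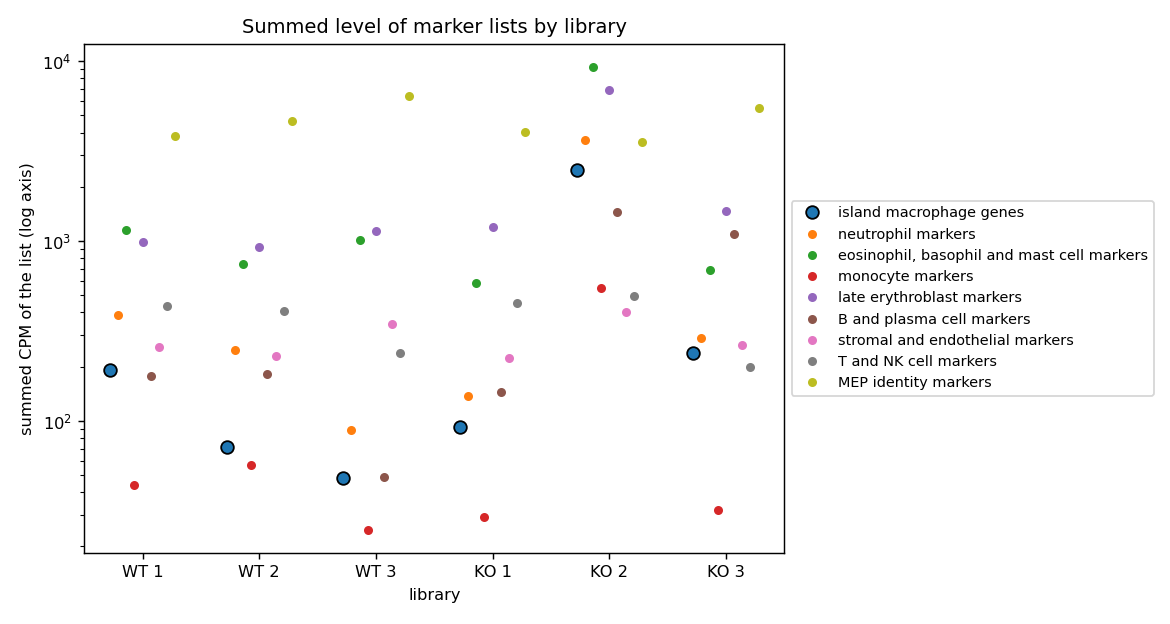
Summed CPM of the 10 island macrophage genes (outlined) and of 8 marker lists in each library, on a log axis, with points offset sideways. The macrophage genes sum to 2477 CPM in KO 2 and to 47.7 to 238 CPM elsewhere, while the MEP identity markers stay between 3530 and 6349 CPM.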

How the data were processed

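Per the labels' protocols, MEP RNA went through SMART-Seq v4 amplification and Nextera XT library preparation, which keeps no strand. The deposited values were raw counts per gene and library. Per the submitters' processing notes, their tools were STAR 2.5.3a, FastQC 0.11.5 and edgeR, and the builds named were GRCh38.p3 and GRCm38.p3. The read counter and annotation release were not given in the sources used here, so counts of overlapping genes are uncertain.

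With edgeR 4.0.16, genes passed filterByExpr (minimum count 10, minimum total 15), were scaled by TMM and were compared between genotypes by the two-sided quasi-likelihood test. P-values were adjusted over all genes that passed (Benjamini-Hochberg), and 0.05 was the threshold. Log2 CPM add a prior count of 2. Transcript lengths came from GENCODE. DESeq2 1.42.0 and limma 3.58.1 (voom), run in R 4.3.3, were alternatives. The fits were tested on simulated data: with the spread of the fit without pairs, which KO 2 widens, edgeR recovered no changed gene on all 6 libraries, and in a simulation added after that, with the smaller spread of the paired fit, it recovered most 4-fold changes. A lack of calls on all 6 libraries is therefore not a sign of equal levels. A kappa B motif was searched in the promoters too, matched none of the members' windows and was left out after that was seen. No column of other samples was present, and every row had a gene name.

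The members and the lists were chosen with earlier results of these data known. The rule named all members, up to 3 genes of smallest p per list and the 10 genes nearest to the members' mean profile; some genes it named are not reported here. Further genes in the report were chosen after their values were seen. Both genotypes carry the numbers 1, 2 and 3; the labels do not say what they stand for. Across genes, each library's log2 CPM minus its genotype's mean correlated at 0.53, 0.16 and 0.63 for same-numbered libraries, each over 0.1, and the numbers were taken as pairs.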

Additional observations from a re-analysis of the deposited data

How the results depend on the processing

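Across 13 alternatives (the replicate block, the block on pairs 1 and 3 alone, DESeq2, limma voom, other scalings, no filter and leaving out each library), edgeR or its replacement called 0 members in each. With the replicate block on all 6 libraries 0 genes and 0 members were called, so no call at the adjusted threshold changed. There the members with an unadjusted edgeR p under 0.05 went from 6 to 0. The log2 fold changes of Siglec1 and Adgre1 fell from 3.09 to 0.96 and from 3.34 to 1.85. The count of such members was also 0 without WT 2, without WT 3 and without KO 2. It rose to 10 without KO 1, without KO 3 and with no filter, and to 9 without WT 1. Among all genes, 667 of 13944 had such a p without KO 1 and 571 of 14045 without KO 3. With no filter 850 of 25640 did, and without WT 1 271 of 13852. Genes called numbered 117 in the block fit of pairs 1 and 3 (0.862% of genes tested) and 6 with DESeq2, and 0 without any one library. Members whose genotypes did not overlap numbered 0 to 7 of 10 when single libraries were left out. The share over all genes tested ran from 5.94% without WT 2 to 16.7% without KO 1, against 4.03% with all 6. The direction turned for Siglec1 (log2 fold change -1.16) and Adgre1 (-0.67) in pairs 1 and 3, and for the same genes (-1.74 and -0.94) without KO 2. Leaving out single libraries gave Siglec1 -1.74 to 3.65 and Adgre1 -0.94 to 4.89; KO 2 held 564 of the Siglec1 counts and 2580 of the Adgre1 counts. DESeq2 gave no adjusted p for Siglec1, Mrc1 and Adgre1. Depth limits Siglec1 most, with 3 to 9 counts in 3 libraries.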
